A study of Mus musculus with 3 samples.

Results

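NT157, APTO_253 and MCB_613 are 3 of the 221 compound wells that could be placed on a plate in a DRUG-seq2 screen of mouse embryonic fibroblasts. DRUG-seq2 adds a well barcode during reverse transcription and sequences all wells of a plate as 1 library. The 3 were chosen by measured values, the likeness of their log2 fold changes across plates, so every comparison of a compound with its plate is a description: a call against the plate sorts genes by their adjusted p, and no such p is printed or read as support. Differences between the compounds were tested, but a choice by likeness favours small differences from NT157, so those tests are not independent of it and a pair that did not pass is not read as likeness. All wells held wild-type cells from embryos, labelled embryonic fibroblast, which spent 4 days in CFAE+8 medium with a compound from a commercial library. The sources used here do not give the meaning of that medium name, the dose of each compound or the number of embryos behind the cells.

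NT157 had 1 well, on plate 2. APTO_253 had 1 well, on plate 1. MCB_613 was listed for 2 wells of plate 1, whose columns held the same count for every gene, and was counted as 1 sample. Whether those counts come from 1 well or from both is not known, and they are called 1 well below. None of the wells carries a vehicle name, so the reference for each compound was the other compound wells of its plate, 88 on plate 1 and 85 on plate 2. Each compound therefore has no replicate of its own. Its single well was assumed to vary like the other compound wells, and p-values measure the spread between wells that hold different compounds. That spread mixes responses to those compounds with technical variation and is not a spread between replicates. The 3 compounds are known by code names and no structures were compared.

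As background, NT157 is known as an inhibitor of insulin receptor substrates, APTO_253 as a compound that lowers MYC and raises KLF4, and MCB_613 as a stimulator of steroid receptor coactivators. Cells meet electrophiles and oxidants through NRF2, a transcription factor that is freed from its repressor KEAP1 and switches on glutathione, thioredoxin and iron-storage genes. Low oxygen, or loss of the iron that prolyl hydroxylases need, stabilises the HIF factors, which raise glycolysis and genes such as Bnip3. The integrated stress response (ISR) slows general translation while it favours ATF4, whose targets include Ddit3 and Trib3.

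The NT157 well held 519263 counts (85.3% of its plate's median), the APTO_253 well 300348 (94.4%) and the MCB_613 well 517375 (163%). The reference wells ranged from 45416 to 591025 counts on plate 1 and from 92437 to 1206220 on plate 2. Mitochondrially encoded transcripts took 1.91% of counts with NT157, 0.940% with APTO_253 and 1.10% with MCB_613, against reference medians of 0.996% on plate 1 and 0.982% on plate 2. The 31 genes of a fibroblast and matrix list summed to 11358 CPM (counts scaled to the library total) with NT157, below every reference well of plate 2 (12529 to 24017 CPM). The list summed to 11923 CPM with APTO_253 and 13124 CPM with MCB_613, inside the plate 1 range of 10629 to 29820 CPM, and none of its genes was at 0 counts in the 3 wells. Of 8 tested genes on a list of the compounds' named targets, Irs1 was called lower with NT157, at 28.9 CPM against a plate median of 85.4 CPM, and Insr, the insulin receptor, was called higher at 7 counts. None was called with APTO_253 or MCB_613, and Ncoa1, Ncoa2 and Ncoa3 were not called with NT157 either. Irs2, Klf4 and Myc were at 8 counts or fewer in each of the 3 wells and were below the filter on low counts.

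A gene was called when its adjusted p was under 0.05 in edgeR's quasi-likelihood test over the 10586 genes tested. NT157 had 2290 called genes (21.6% of those tested), 1326 higher (12.5%) and 964 lower (9.11%). APTO_253 had 456 (4.31%), 231 higher (2.18%) and 225 lower (2.13%). MCB_613 had 622 (5.88%), 405 higher (3.83%) and 217 lower (2.05%). Since these contrasts chose the compounds, the counts are given beside their share of all genes and nothing is read from them. The counts of gene list members given later stand beside these same shares of higher and lower calls. Without the filter on low counts APTO_253 had 300 called genes, and MCB_613 had 305 when the NT157 and MCB_613 wells were thinned to the APTO_253 total. With every deeper well thinned to that total, 161 reference wells included, MCB_613 had 307. Both thinnings were added after the data were seen. Other scalings moved the split between higher and lower calls. The higher calls of NT157 made up 57.9% here, 71% with DESeq2 and 47.9% with library totals alone. For APTO_253 the share was 50.7% here, 63.6% with relative log expression (RLE) size factors, 70.4% with DESeq2 and 69.1% with totals. For MCB_613 it was 65.1% here and 76.9% with totals. The median log2 fold change of all genes was -0.10 for NT157, -0.12 for APTO_253 and -0.03 for MCB_613, and library totals shifted these to -0.20, 0.03 and 0.11.

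NT157 and the plate 1 compounds have separate reference wells. Of the 1326 genes higher with NT157, 180 were also higher with APTO_253, which is 13.6% of the NT157 genes and 77.9% of the 231 APTO_253 genes. With MCB_613 the shared higher genes numbered 265, 20% of the NT157 genes and 65.4% of the 405 MCB_613 genes. Among lower genes, NT157 shared 166 with APTO_253 (17.2% and 73.8% of the 2 sets) and 146 with MCB_613 (15.1% and 67.3%). Over all genes tested, 12.5% were called higher and 9.11% lower with NT157. The compounds were chosen for likeness across plates, so this overlap is a description and is not read as support. That choice also favours few opposite calls. Of the genes NT157 had higher, 1 was lower with APTO_253 and 0 with MCB_613, and of those it had lower, 0 were higher with APTO_253 and 4 with MCB_613. APTO_253 and MCB_613 share their reference wells, so no overlap between these is given.

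In all 3 compounds, 60 genes were higher (0.567% of those tested) and 63 were lower (0.595%). These counts describe the 3 wells and are no measure of likeness, since APTO_253 and MCB_613 share their reference. The ordering of the shared higher genes by their smallest log2 fold change was led by Ftl1, the ferritin light chain, which stores iron. Ftl1 stood at 2532 CPM with NT157, 832 CPM with APTO_253 and 862 CPM with MCB_613, while its plate medians were 131 CPM on plate 1 and 282 CPM on plate 2. It lay above every reference well of its plate in all 3 cases, and the log2 fold changes were 3.11 ± 0.45 (SE), 2.12 ± 0.56 and 2.19 ± 0.53. Gsto1, a glutathione transferase, was at 1779 CPM, 1938 CPM and 1030 CPM in the same order, against plate medians of 200 CPM on plate 1 and 204 CPM on plate 2. Here 2 reference wells of plate 1 lay above MCB_613. Gapdh, the glycolytic dehydrogenase often used as a constant standard, was at 826 CPM, 413 CPM and 261 CPM, each above every reference well of its plate. Its plate medians were 62.0 CPM and 122 CPM, and near-identical pseudogene copies make its level uncertain. Bsg, the chaperone of lactate transporters, was at 5614 CPM, 3732 CPM and 2625 CPM, and 1 reference well of plate 1 lay above MCB_613.

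Other shared higher genes were small parts of larger machines. Ndufa1, a subunit of respiratory complex I, reached 2174 CPM with NT157, 589 CPM with APTO_253 and 563 CPM with MCB_613, and 1 reference well of plate 1 lay above both of the latter. Tnfrsf12a, the TWEAK receptor, was nearly level in the 3 wells at 422 CPM, 406 CPM and 360 CPM, all above every reference well. The log2 fold changes of Tnfrsf12a were 1.91 ± 0.44, 1.90 ± 0.48 and 1.74 ± 0.46. Eef1e1, a scaffold of the tRNA synthetase complex, Aven, an apoptosis inhibitor, Uck2, a uridine kinase, Mrpl42, a mitochondrial ribosomal protein, Tmem126a, a mitochondrial membrane protein, and Ybx1, an RNA-binding protein, completed the first 12. Ranked by the same rule, these 6 had log2 fold changes of 1.63 to 2.65 in the 3 wells. The genes were picked for being high in all 3 wells, so nothing is read from the differences between compounds among them. After either thinning Gsto1, Ndufa1 and Tnfrsf12a were no longer called with MCB_613.

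The first shared lower genes by the same ordering included fibroblast surface and matrix genes. Thy1, a surface marker of fibroblasts, was at 108 CPM with NT157, 306 CPM with APTO_253 and 209 CPM with MCB_613. Its reference wells ran from 272 to 4844 CPM with a median of 2183 on plate 1, and from 594 to 4869 CPM with a median of 3107 on plate 2. NT157 and MCB_613 lay below every reference well, and 1 reference well lay below APTO_253. Col6a1, a chain of the microfibrillar collagen VI, was at 46.2 CPM, 86.6 CPM and 85.0 CPM against plate medians of 722 CPM for NT157 and 618 CPM for the other two. Fbln1, an extracellular glycoprotein, was at 19.3 CPM, 56.6 CPM and 81.2 CPM, with medians of 620 CPM and 538 CPM. Mmp11, a stromal metalloproteinase, was at 21.2 CPM, 23.3 CPM and 30.9 CPM, below every reference well in all 3 cases.

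Several of the shared lower genes were near the limit of detection. Aqp1, a water channel, gave 3 counts with NT157 and 1 count each with APTO_253 and MCB_613, although the lowest reference well held 24.2 CPM on plate 1 and 24.8 CPM on plate 2. The ratio of Aqp1 to its expected count was 0.0245 (95% interval 0.00506 to 0.0717) with NT157, 0.0146 (0.00037 to 0.0814) with APTO_253 and 0.00849 (0.000215 to 0.0473) with MCB_613. Tmem132c, a membrane protein, gave 1 count with NT157 and MCB_613 and 0 with APTO_253, which puts it at least 5.95-fold lower there against a floor of 3 counts. Igsf10 gave 1 count in each well, and Nrgn, a calmodulin-binding protein best known from neurons, gave 2 counts, 3 counts and 5 counts. Tmem132c was not called with MCB_613 after either thinning. These floors and intervals cover counting error only. In bulk wells, fewer cells of a type and less RNA per cell cannot be told apart.

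**Figure D1:**
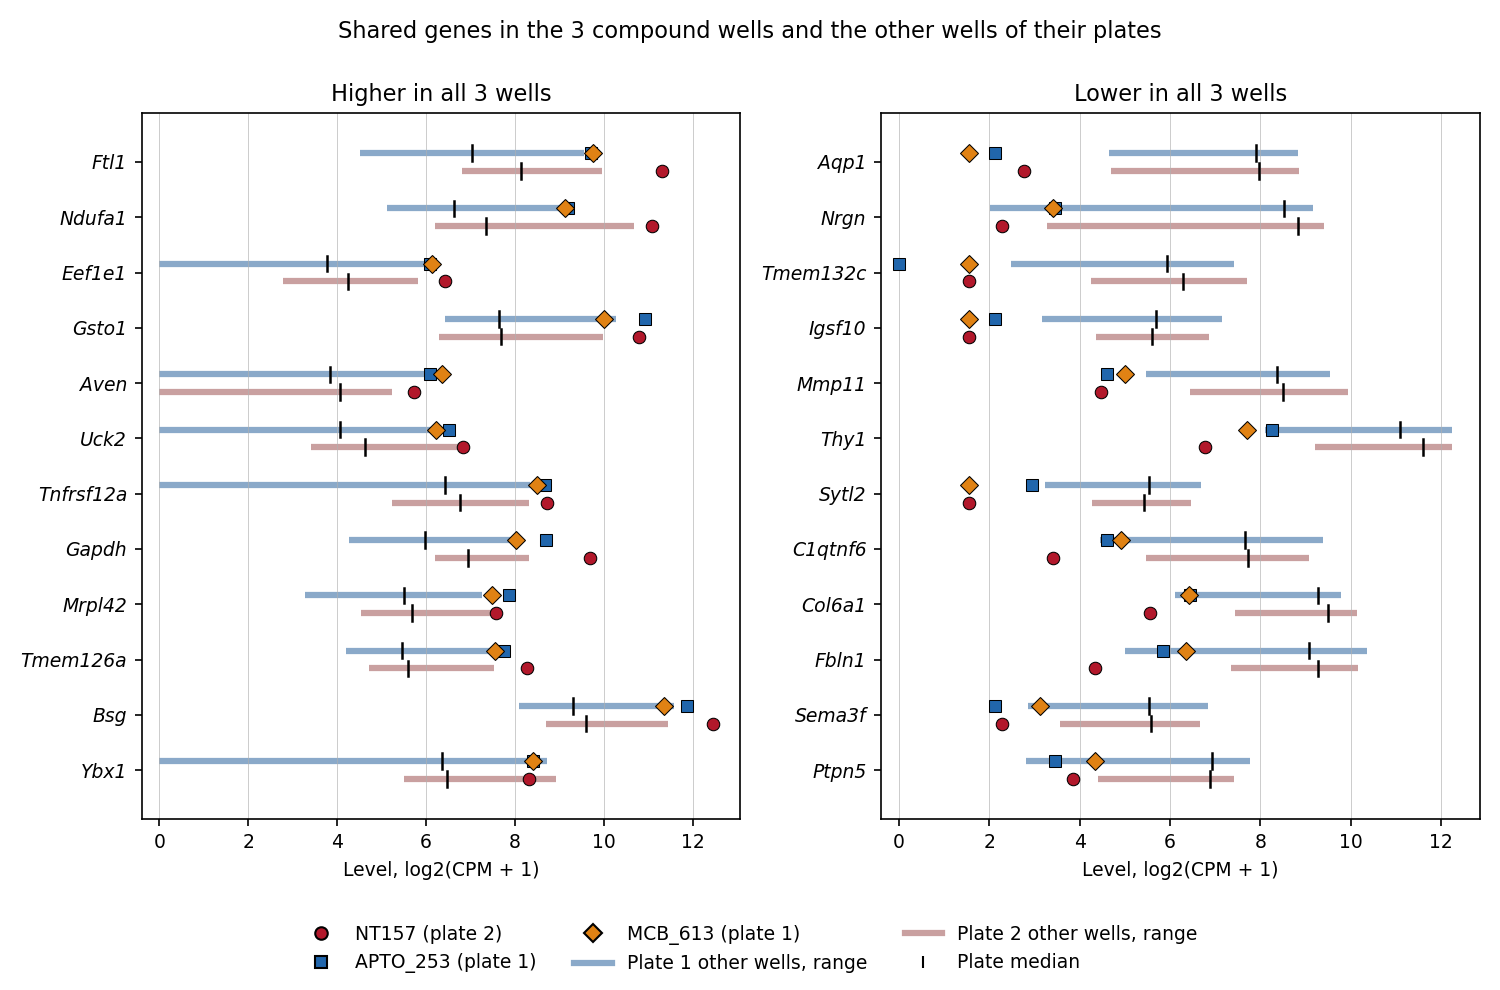
Level of the first 12 shared higher genes (left) and shared lower genes (right), as log2(CPM + 1) on the horizontal axis, with 1 symbol per compound well. Pale bars show the range of the 88 reference wells of plate 1 and the 85 of plate 2, and ticks their medians; the compound symbols sit at or beyond the upper ends on the left and at or beyond the lower ends on the right, except where a few reference wells pass them.

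Being called did not mean being outside the plate. Of the 60 shared higher genes, 50 lay above every reference well with NT157, 45 with APTO_253 and 30 with MCB_613. Of the 63 shared lower genes, 57 lay below every reference well with NT157, 26 with APTO_253 and 22 with MCB_613. Over all 10586 genes, 969 lay above every reference well with NT157, 471 with APTO_253 and 421 with MCB_613, and 921, 157 and 84 lay below every one. Some reference wells carried the same genes. PF_04979064 was the highest reference well of plate 1 for 31 of the 60 genes, and CCT245737 was the highest of plate 2 for 19.

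Plate 3 held 41 other compound wells that were neither members nor reference for them. Of the 60 shared higher genes, the wells of plate 3 had from 6 to 60 above the plate median, with a median of 25, and of the 63 shared lower genes from 12 to 63 below it, with a median of 28. LDC4297, known as a CDK7 inhibitor, had 60 above and 62 below. BEZ235 tosylate, an inhibitor of PI3K and mTOR, had 59 and 63, THZ1 hydrochloride, another CDK7 inhibitor, 59 and 57, and Rigosertib sodium 56 and 53. Over all genes, the share above the plate 3 median was 54.8% with LDC4297 and 45.9% with BEZ235 tosylate. That share was 60.5% with THZ1 hydrochloride and 57.5% with Rigosertib sodium. The share of all genes below the median ran from 38% with THZ1 hydrochloride to 52.4% with BEZ235 tosylate in these wells. The shared genes were therefore displaced the same way in wells with other known targets. Profiles were also correlated across the 10586 genes, each as log2 CPM minus the mean of all other compound wells of its plate. In this measure APTO_253 and MCB_613 stand in each other's mean. The compounds were chosen by likeness, so these values are a description. The Pearson correlation between NT157 and wells on other plates was highest for APTO_253 (0.63), BEZ235 tosylate (0.622) and MCB_613 (0.591), against a median of -0.109 over 131 wells. For APTO_253 the next after NT157 were CCT245737 (0.578) and BEZ235 tosylate (0.559), over 127 wells with a median of -0.091. For MCB_613 the same 2 followed NT157, at 0.562 and 0.556, over 127 wells with a median of -0.084. Genes are not independent, and the wells of a plate share a library and a reference.

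**Figure D2:**
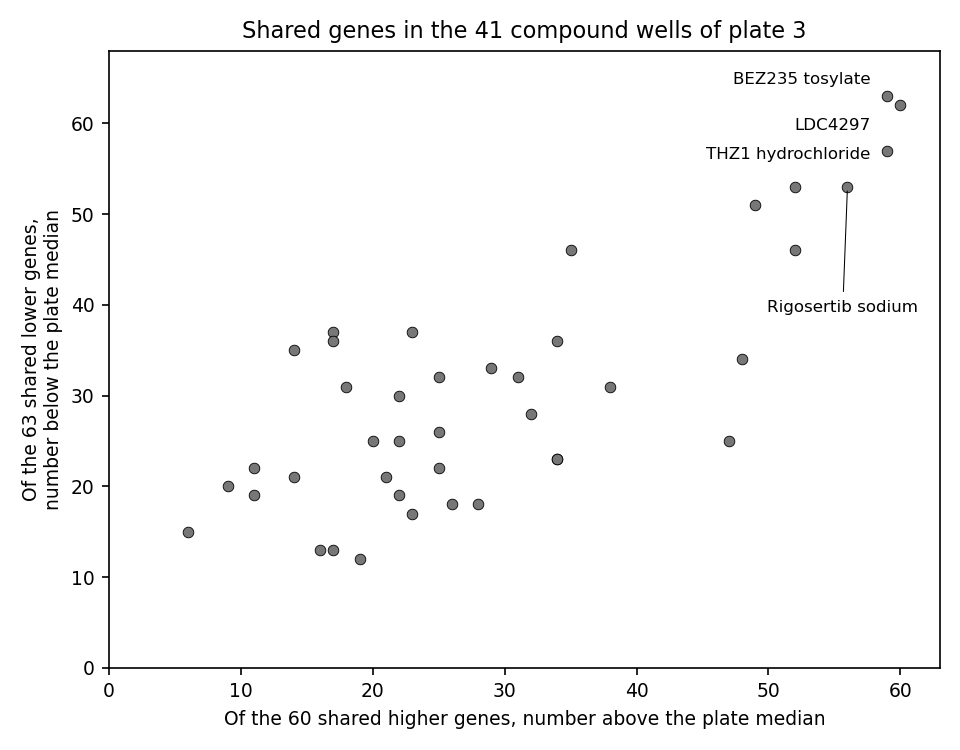
Each point is 1 of the 41 compound wells of plate 3. The horizontal axis counts how many of the 60 shared higher genes lay above the plate 3 median, and the vertical axis how many of the 63 shared lower genes lay below it; BEZ235 tosylate, LDC4297 and THZ1 hydrochloride sit at the upper right, with 59 or 60 genes above and 57 to 63 below.

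The 3 pairs of compounds were then compared gene by gene at the matched time of 4 days, with p-values adjusted over all genes and the 3 pairs together. As the doses are unknown here, a difference between compounds cannot be told apart from a difference in dose. NT157 and APTO_253 differed in 35 genes (0.331%), 33 higher with NT157 (0.312%) and 2 higher with APTO_253 (0.0189%). NT157 and MCB_613 differed in 62 genes (0.586%), 36 higher with NT157 (0.34%) and 26 higher with MCB_613 (0.246%). APTO_253 and MCB_613, on the same plate, differed in 16 genes (0.151%), 6 higher with APTO_253 (0.0567%) and 10 higher with MCB_613 (0.0945%). At an unadjusted p under 0.05 the numbers were 867, 1214 and 688. Without the filter on low counts NT157 and APTO_253 differed in 23 genes, and with plate 1 alone APTO_253 and MCB_613 differed in 10. With the NT157 and MCB_613 wells thinned NT157 and MCB_613 differed in 40 genes, and with every deeper well thinned in 33, while NT157 and APTO_253 then differed in 20. Library totals turned the split of NT157 and MCB_613 to 17 higher and 69 lower with NT157 (DESeq2: 61 and 17), that of NT157 and APTO_253 to 17 and 8, and DESeq2 that of APTO_253 and MCB_613 to 7 and 7. Differences that involve NT157 cross plates, so each compound was first set against its own plate.

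**Figure D3:**
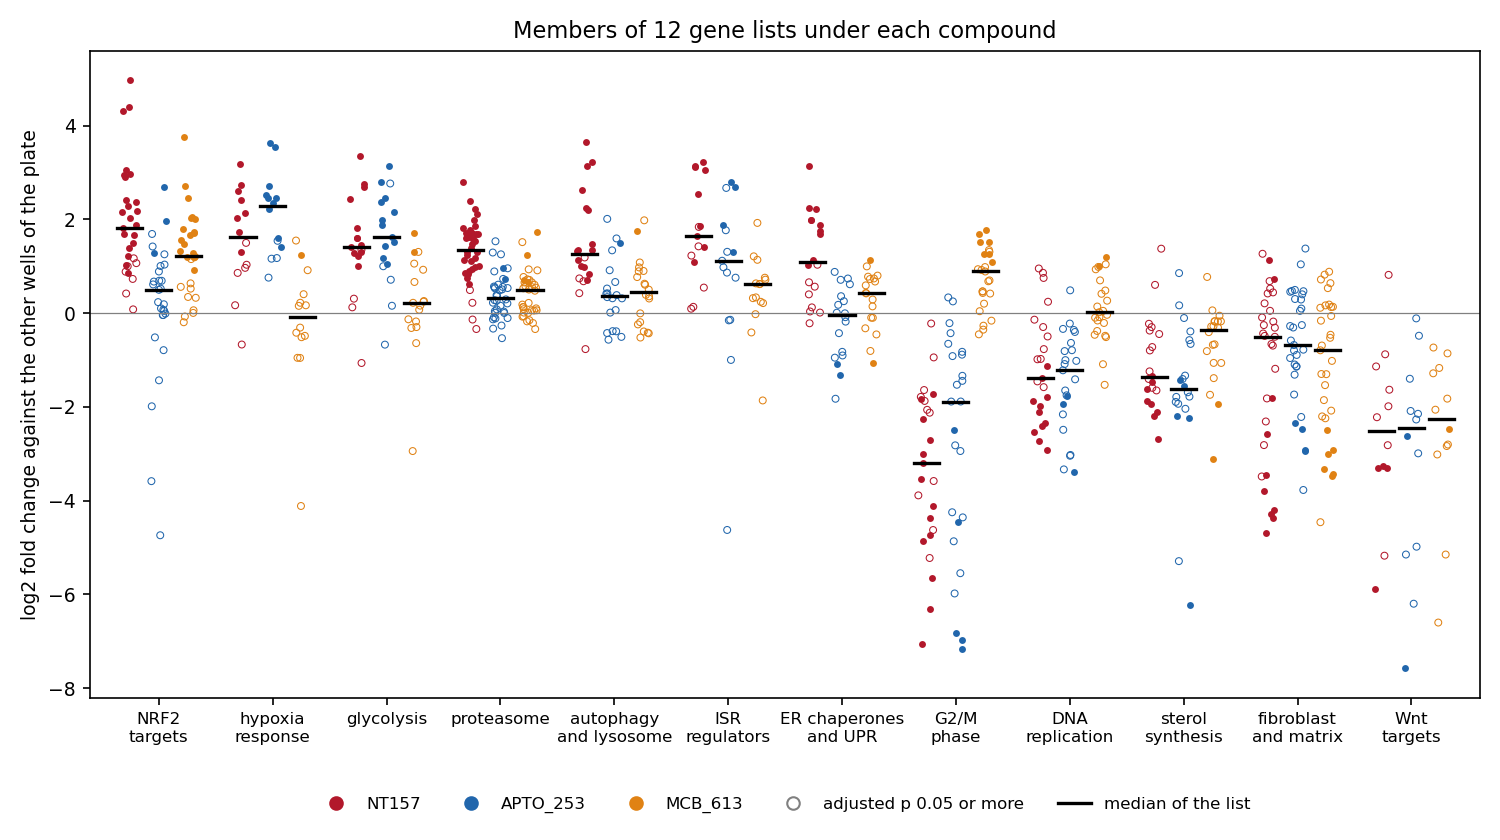
Each point is a tested gene of 1 of 12 lists under NT157, APTO_253 or MCB_613, placed by its log2 fold change against the other wells of its plate; filled points were called and bars are list medians. NRF2 targets lie highest with NT157, hypoxia and glycolysis genes lie high with NT157 and APTO_253, and G2/M genes lie low with these 2 and above 0 with MCB_613. Values under -4 are mostly genes at 0 to 3 counts, whose fitted fold is no bound.

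The NRF2 target list had 29 tested genes. With NT157, 22 were called higher and the median log2 fold change was 1.81. With APTO_253, 3 were called higher with a median of 0.50, and with MCB_613, 18 were called higher with a median of 1.21. None was called lower in the 3 wells. After either thinning, 18 were called higher with NT157, 3 with APTO_253 and 10 with MCB_613, so the counts depend on depth. The list summed to 18667 CPM with NT157, 7944 CPM with APTO_253 and 12330 CPM with MCB_613, and each sum lay above every reference well of its plate (highest 7033 CPM on plate 1 and 6713 CPM on plate 2). All 3 wells were thus above their plates in the summed list, in the order NT157, MCB_613, APTO_253. LDC4297 was likewise above every other compound well of plate 3, at 7785 CPM, and CCT245737 was the highest reference well of plate 2.

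Hmox1 and Blvrb of that list, and Fth1 of the iron handling list, differed between compounds. Hmox1 (chr8:75093621-75100589, mm10), the heme oxygenase that releases iron from heme, stood at 2948 CPM with NT157, 653 CPM with APTO_253 and 375 CPM with MCB_613, with plate medians of 133 CPM on plate 1 and 140 CPM on plate 2. NT157 and APTO_253 were above every reference well and MCB_613 was passed by 2. Hmox1 was higher with NT157 than with APTO_253 by a log2 difference of 2.42 ± 0.60 (edgeR adjusted p = 0.0301) and than with MCB_613 by 3.21 ± 0.61 (edgeR adjusted p = 0.00102). The log2 difference between APTO_253 and MCB_613 was 0.78 with a 95% interval of -0.37 to 1.94, which did not pass. Blvrb, the next enzyme of heme breakdown, was at 1048 CPM with NT157, 147 CPM with APTO_253 and 607 CPM with MCB_613, and differed between NT157 and APTO_253 by 3.17 ± 0.67 (edgeR adjusted p = 0.00343). Fth1, the ferritin heavy chain, was at 22411 CPM, 5637 CPM and 8350 CPM, so NT157 exceeded APTO_253 by 2.56 ± 0.46 (edgeR adjusted p = 0.000273) and MCB_613 by 1.97 ± 0.45 (edgeR adjusted p = 0.0114) on the log2 scale. Hmox1, Blvrb and Fth1 were thus each highest in the NT157 well. The Hmox1 difference from APTO_253 was not called with library totals alone, without the filter on low counts or with every deeper well thinned (edgeR adjusted p up to 0.104), and neither thinning called Hmox1 with MCB_613 against its plate.

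The antioxidant genes Prdx1 and Gsta4 were lower with APTO_253 than with NT157, and Nqo1 and G6pdx lower than with MCB_613, and none of these passed against both. Prdx1, a peroxidase, was at 4248 CPM with NT157, 1378 CPM with APTO_253 and 3576 CPM with MCB_613. NT157 exceeded APTO_253 by a log2 difference of 2.30 ± 0.43 (edgeR adjusted p = 0.000667), while the differences of NT157 from MCB_613 (0.91, 95% interval 0.09 to 1.72) and of APTO_253 from MCB_613 (-1.39, -2.22 to -0.56) did not pass after adjustment. Gsta4, a glutathione transferase that clears lipid aldehydes, was at 1683 CPM, 120 CPM and 999 CPM, and differed between NT157 and APTO_253 by 4.28 ± 0.85 (edgeR adjusted p = 0.0017). Nqo1, which reduces quinones, followed another order. It was at 52.0 CPM with NT157, 13.3 CPM with APTO_253 and 199 CPM with MCB_613, with a log2 difference of -3.89 ± 0.95 between APTO_253 and MCB_613 (edgeR adjusted p = 0.0267). G6pdx, which makes NADPH, was at 239 CPM, 93.2 CPM and 305 CPM and was lower with APTO_253 than with MCB_613 by -1.73 ± 0.44 (edgeR adjusted p = 0.0387). Of 10 alternatives, 7 called Nqo1 and 4 called G6pdx, with edgeR or DESeq2 adjusted p up to 0.077 and 0.119. Gclm, the modifier subunit of glutathione synthesis, was at 466 CPM, 86.6 CPM and 209 CPM, and no pair passed. The log2 difference of Gclm between NT157 and APTO_253 was 2.88 with a 95% interval of 1.28 to 4.49 (edgeR adjusted p = 0.0804). Srxn1, which repairs peroxiredoxins, was at 327 CPM, 157 CPM and 319 CPM, close between NT157 and MCB_613 with a log2 difference of 0.23 (-0.83 to 1.29).

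The antioxidant response element is commonly written TGACNNNGC, and RefSeq promoter windows (build GRCm38.p6, 250 bases before to 50 after each start) were searched for it on both strands. It was found in 12.4% of all 32851 promoters, or for 14.0% of all 27025 genes with a promoter. Of the 24 NRF2 list genes with a promoter, 10 held it (41.7%). Hmox1, Blvrb, Gsta4 and Nqo1 were not among those 10, and list genes without a promoter could not be searched. In other lists it was held by 4 of 12 hypoxia genes (33.3%), 2 of 6 metallothionein and zinc genes (33.3%) and 3 of 14 ISR regulators (21.4%). It was held by 2 of 16 heat shock genes (12.5%) and 2 of 17 glycolysis genes (11.8%). The stretches before the start of Gclm (chr3:122245407-122245556, plus strand) and Prdx1 (chr4:116685449-116685543, plus strand) are shown. Both genes were picked among those that hold a match, and both were high with NT157 and MCB_613. Capitals mark the match, here in its reverse complement, and annotated exons are left out.
Gclm: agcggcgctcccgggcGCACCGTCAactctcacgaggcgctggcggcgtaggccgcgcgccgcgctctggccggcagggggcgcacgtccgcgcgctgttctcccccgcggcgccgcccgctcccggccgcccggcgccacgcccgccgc
Prdx1: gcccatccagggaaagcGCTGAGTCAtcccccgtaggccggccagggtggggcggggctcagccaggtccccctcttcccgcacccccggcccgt
A match describes the letters and does not show that NRF2 bound there.

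More hypoxia and glycolysis genes were called with NT157 and APTO_253 than with MCB_613, although few of them passed in the pair tests. Of 14 tested genes on the hypoxia list, 8 were called higher with NT157 (median log2 fold change 1.62), 10 with APTO_253 (2.29) and 1 with MCB_613 (-0.08). The MCB_613 median turned positive, to 0.06, with library totals, and to 0.08 with genes at 0 counts set at their bound. The list summed to 1733 CPM with NT157, 2324 CPM with APTO_253 and 564 CPM with MCB_613. The highest reference wells held 942 CPM on plate 1 and 882 CPM on plate 2, so the sums of NT157 and APTO_253 were outside the reference range and that of MCB_613 was inside it. Of 17 glycolysis genes, 13 were called higher with NT157 (median 1.41), 12 with APTO_253 (1.63) and 2 with MCB_613 (0.22), and none was called lower. In the pair tests against MCB_613, 2 of the 14 hypoxia genes passed for NT157 and 2 for APTO_253. Of the 17 glycolysis genes, 1 passed for NT157 and 4 for APTO_253, all higher than with MCB_613.

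Bnip3 (chr7:138890836-138909519), a mitophagy receptor and a standard HIF target, stood at 135 CPM with NT157, 283 CPM with APTO_253 and 15.5 CPM with MCB_613, where the plate 1 reference ran from 0 to 40.6 CPM with a median of 17.8 CPM. MCB_613 was thus at its plate's middle and the other two were above every reference well. APTO_253 exceeded MCB_613 by a log2 difference of 4.15 ± 0.61 (edgeR adjusted p = 8.25e-07) and NT157 exceeded MCB_613 by 3.13 ± 0.62 (edgeR adjusted p = 0.0017). NT157 and APTO_253 differed by -1.02 (95% interval -1.99 to -0.06), which did not pass after adjustment. Fam162a, a mitochondrial HIF target, was at 855 CPM, 979 CPM and 197 CPM, with log2 differences from MCB_613 of 1.98 ± 0.51 for NT157 (edgeR adjusted p = 0.0419) and 2.29 ± 0.51 for APTO_253 (edgeR adjusted p = 0.00743). Egln3, an oxygen-sensing prolyl hydroxylase, gave 16 counts with NT157, 18 counts with APTO_253 and 0 with MCB_613, and its differences did not pass. Slc2a1, the glucose importer, was called in all 3 wells at 208 CPM, 236 CPM and 118 CPM, above every reference well of its plate, although not called with MCB_613 after either thinning. Slc2a1 was the only tested gene of the hypoxia list called higher with MCB_613. Either thinning ended the call of Bnip3 between NT157 and MCB_613, and 5 of 10 alternatives called Fam162a for that pair.

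Along glycolysis, Pfkl, a phosphofructokinase, was at 243 CPM with NT157, 303 CPM with APTO_253 and 67.7 CPM with MCB_613. Its log2 difference between APTO_253 and MCB_613 was 2.14 ± 0.55 (edgeR adjusted p = 0.0446), which 7 of 10 alternatives called. Tpi1, triosephosphate isomerase, was at 1252 CPM, 1655 CPM and 590 CPM, with a log2 difference of 1.47 ± 0.32 between APTO_253 and MCB_613 (edgeR adjusted p = 0.00572). Ldha, which makes lactate, was at 4537 CPM, 5134 CPM and 1660 CPM. The plate 1 reference for Ldha ran from 906 to 2367 CPM, so MCB_613 was inside it and APTO_253 far above. NT157 and APTO_253 did not differ in Ldha beyond the spread, with a log2 difference of -0.03 and a 95% interval of -0.75 to 0.69, and both exceeded MCB_613, by 1.58 ± 0.37 (edgeR adjusted p = 0.0193) and 1.61 ± 0.37 (edgeR adjusted p = 0.0142). Slc16a3, the exporter of lactate, gave 25 counts with NT157, 46 counts with APTO_253 and 1 count with MCB_613. Its ratio of APTO_253 to MCB_613 was 79.2 (95% counting interval 13.5 to 3197, edgeR adjusted p = 0.00572). DESeq2 did not call Slc16a3. Slc2a1, Pfkl, Tpi1, Ldha and Slc16a3 were each highest in CPM with APTO_253, but none of them passed between APTO_253 and NT157. For scale, the summed hypoxia list was at 2.79 times its plate median with LDC4297, against 5.3 times with APTO_253, 3.47 with NT157 and 1.29 with MCB_613.

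ACGTG is the core of the HIF-binding hypoxia response element, and it also occurs in E-boxes. It was found on either strand in 19.6% of all 32851 promoters, or for 21.8% of all 27025 genes with a promoter. It was held by 9 of 12 matched hypoxia list genes (75.0%) and 11 of 17 glycolysis genes (64.7%). Of the 6 genes higher with APTO_253 than with MCB_613, 4 held a match (66.7%), and Pfkl and Tpi1 held none. Of the 8 genes with the largest rises of NT157 over MCB_613, 6 were matched and 0 held one. Bnip3, Fam162a and Ldha also passed as higher with NT157 than with MCB_613, outside those 8, and each held a match. Capitals below mark each ACGTG or its reverse complement CACGT. Stretches before the start of the 4 genes, printed because they hold a match, come from RefSeq (GRCm38.p6) with annotated exons left out. They are Bnip3 (chr7:138909520-138909656, minus strand), Fam162a (chr16:36071595-36071684, minus strand), Ldha (chr7:46845654-46845803, plus strand) and Slc16a3 (chr11:120948917-120949052, plus strand).
Bnip3: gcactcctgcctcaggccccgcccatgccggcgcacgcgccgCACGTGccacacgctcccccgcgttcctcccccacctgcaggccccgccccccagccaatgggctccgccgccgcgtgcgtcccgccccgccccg
Fam162a: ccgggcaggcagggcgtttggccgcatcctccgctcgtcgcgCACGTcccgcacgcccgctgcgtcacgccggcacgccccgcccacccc
Ldha: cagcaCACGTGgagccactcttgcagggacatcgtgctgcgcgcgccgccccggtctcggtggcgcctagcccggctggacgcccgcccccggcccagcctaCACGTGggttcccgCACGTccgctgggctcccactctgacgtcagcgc
Slc16a3: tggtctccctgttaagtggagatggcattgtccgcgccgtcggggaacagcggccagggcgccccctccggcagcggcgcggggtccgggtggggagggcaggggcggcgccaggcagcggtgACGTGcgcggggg
Ldha held 5 matches, counting both strands of each palindrome, Bnip3 held 2, and Fam162a and Slc16a3 held 1 each. These matches describe the letters and do not show binding.

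**Figure D4:**
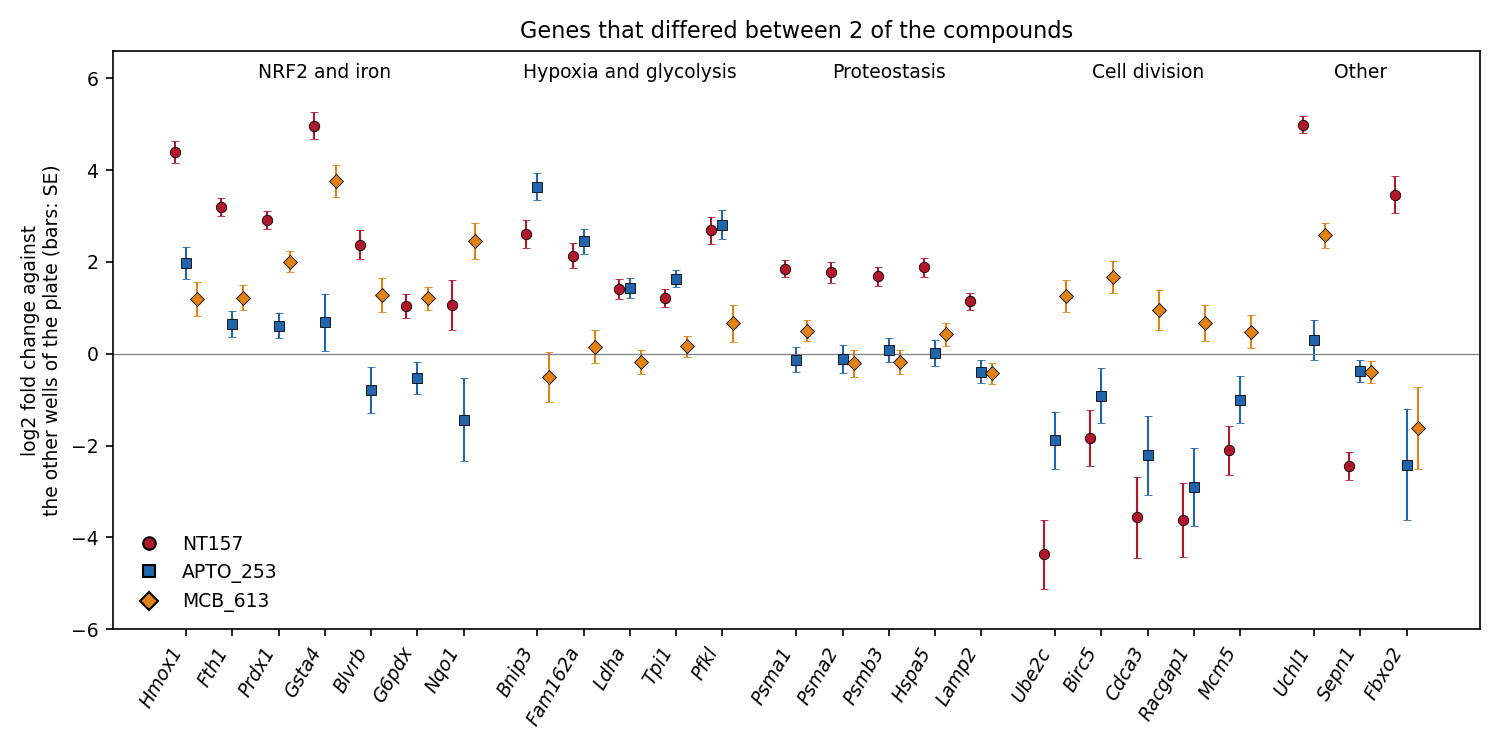
Genes that differed between 2 of the compounds, with the log2 fold change of each compound against the other wells of its plate on the vertical axis and bars of 1 SE. NT157 lies highest for Hmox1, Fth1 and the proteasome genes, APTO_253 and NT157 lie above MCB_613 for Bnip3, Fam162a, Ldha, Tpi1 and Pfkl, and MCB_613 lies highest for the cell division genes.

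Cell division genes ran the other way. Of 25 tested G2/M genes, 14 were called lower with NT157 and 5 with APTO_253, and none higher, while 7 were called higher with MCB_613 and none lower. The summed list was 144 CPM with NT157 against a plate 2 range of 354 to 1600 CPM, and 226 CPM with APTO_253 and 1591 CPM with MCB_613 against a plate 1 range of 265 to 1158 CPM. NT157 and APTO_253 were therefore below, and MCB_613 above, every reference well of their plates. Median log2 fold changes were -3.19, -1.89 and 0.89, or -1.87 and -0.92 for the first 2 with genes at 0 counts set at their bound. With DESeq2, 1 of the 5 APTO_253 calls was made. The G2/M list summed to 254 CPM with LDC4297 on plate 3, below every other compound well there. Of 23 DNA replication genes, 11 were called lower with NT157, 3 lower with APTO_253 and 2 higher with MCB_613. The MCB_613 well also had 163% of its plate's median total. With the NT157 and MCB_613 wells thinned to the APTO_253 total, 10 G2/M genes were called lower with NT157 and 3 higher with MCB_613, and with every deeper well thinned 11 and 3 of 24 tested. No DNA replication gene was called higher with MCB_613 after either thinning.

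In the pair tests 9 G2/M genes were lower with NT157 than with MCB_613, and 3 lower with APTO_253 than with MCB_613. Ube2c, which loads ubiquitin for the anaphase-promoting complex, gave 3 counts (5.78 CPM) with NT157, 26.6 CPM with APTO_253 and 236 CPM with MCB_613. The ratio of NT157 to MCB_613, each against its plate, was 0.0163 (95% counting interval 0.00332 to 0.0489, edgeR adjusted p = 8.25e-07). Between APTO_253 and MCB_613 the log2 difference in Ube2c was -3.15 ± 0.71 (edgeR adjusted p = 0.00899). Ccnb1, cyclin B1, was at 0 counts with NT157 and APTO_253 and at 67.7 CPM with MCB_613, so it was at least 11.2-fold and 6.77-fold lower (edgeR adjusted p = 0.00743 and 0.0286). Kif20a, a kinesin of cytokinesis, was at 7.70 CPM, 0 counts and 94.7 CPM. NT157 was lower than MCB_613 in Kif20a by -3.78 ± 0.75 on the log2 scale (edgeR adjusted p = 0.0017), and APTO_253 was at least 9.48-fold lower (edgeR adjusted p = 0.000526). Birc5, or survivin, was at 17.3 CPM, 36.6 CPM and 220 CPM, with a log2 difference of -3.51 ± 0.71 between NT157 and MCB_613 (edgeR adjusted p = 0.00218). Mcm5, a subunit of the replicative helicase, was at 21.2 CPM, 46.6 CPM and 130 CPM and differed between NT157 and MCB_613 by -2.59 ± 0.64 (edgeR adjusted p = 0.0317). No tested gene of the G2/M or DNA replication lists differed between NT157 and APTO_253. Of the 9 genes between NT157 and MCB_613, Ube2c, Birc5, Ccnb2, Cdc20 and Kif20a were called in all 10 alternatives, and Ccnb1, Ccna2, Cdk1 and Prc1 were lost with DESeq2 and after either thinning. Between APTO_253 and MCB_613, Ccnb1 was not called with DESeq2, after either thinning, or with plate 1 alone, and Kif20a was not called with DESeq2. Mcm5 was not called without the filter on low counts.

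Protein turnover genes rose most with NT157. Of 36 tested proteasome genes, 32 were called higher with NT157, 2 with APTO_253 and 4 with MCB_613, with median log2 fold changes of 1.35, 0.33 and 0.49. The list summed to 15110 CPM, 8370 CPM and 8568 CPM, each above every reference well (highest 8298 CPM on plate 1 and 8384 CPM on plate 2). LDC4297 was likewise above every other compound well of plate 3, at 9085 CPM. Psma1, a subunit of the catalytic core, was at 539 CPM with NT157, 160 CPM with APTO_253 and 246 CPM with MCB_613. NT157 was above every reference well, whereas APTO_253 lay inside its plate's range of 66.1 to 258 CPM. Psma1 was higher with NT157 than with APTO_253 by 1.99 ± 0.36 (edgeR adjusted p = 0.00026) and than with MCB_613 by 1.35 ± 0.33 (edgeR adjusted p = 0.0301) on the log2 scale. In all, 6 proteasome genes passed against APTO_253 (Psma1, Psma2, Psmb1, Psmb3, Psmd6 and Psmd14) and 6 against MCB_613 (Psma1, Psma2, Psmb3, Psmb4, Psmd6 and Psmd12), all higher with NT157. None passed between APTO_253 and MCB_613. Against MCB_613, Psma1 was not called with library totals alone or after either thinning. Of 10 alternatives, 4 called Psmb1 and 7 each called Psmb4 and the difference of Psmd6 from APTO_253.

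Lysosome and autophagy genes followed the same order. Of 20 genes, 15 were called higher with NT157 and 1 each with APTO_253 and MCB_613. Lamp2, a lysosomal membrane protein, was at 430 CPM with NT157, 173 CPM with APTO_253 and 166 CPM with MCB_613, with log2 differences of 1.53 ± 0.32 (edgeR adjusted p = 0.00393) and 1.57 ± 0.31 (edgeR adjusted p = 0.00171). Sqstm1, the autophagy receptor p62, was called higher in all 3 wells at 2552 CPM, 982 CPM and 1160 CPM, and no pair passed. The APTO_253 call of Sqstm1 was lost with DESeq2 and in 4 other alternatives. Of 18 ER chaperone genes, 10 were called higher with NT157, 0 with APTO_253 and 1 with MCB_613, and 2 were lower with APTO_253 and 1 with MCB_613. The median of this list was -0.05 with APTO_253, and 0.06 with RLE size factors, 0.06 with DESeq2 and 0.11 with library totals. Hspa5, the ER chaperone BiP, was at 676 CPM, 186 CPM and 246 CPM, and NT157 exceeded APTO_253 by 1.87 ± 0.38 (edgeR adjusted p = 0.00208) and MCB_613 by 1.46 ± 0.36 (edgeR adjusted p = 0.0306). With library totals alone neither Lamp2 difference was called, nor that of Hspa5 from MCB_613, and with every deeper well thinned neither Lamp2 difference was called. Of 20 heat shock genes, 9 were called higher with NT157, 1 with APTO_253 and 2 with MCB_613.

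Of the ISR regulators, 1 gene passed in a pair test. Of 15 tested, 9 were called higher with NT157, 4 with APTO_253 and 0 with MCB_613, with medians of 1.64, 1.12 and 0.62. Ddit3, the factor CHOP, was at 628 CPM with NT157, 526 CPM with APTO_253 and 92.8 CPM with MCB_613, where plate medians were 66.0 CPM for NT157 and 63.9 CPM for the other two. NT157 and APTO_253 were above every reference well, and 16 reference wells lay above MCB_613. NT157 and MCB_613 differed in Ddit3 with a 95% interval of 1.47 to 4.53 on the log2 scale (edgeR adjusted p = 0.0454), which 4 of 10 alternatives called, and APTO_253 and MCB_613 by 2.48 (95% interval 0.96 to 4.00, edgeR adjusted p = 0.137). Atf3, another stress factor, was at 50.1 CPM, 56.6 CPM and 7.73 CPM, with no pair passing. Atf4 itself was at 518 CPM, 596 CPM and 280 CPM. Asns, the asparagine synthetase that ATF4 commonly raises, was at 42.4 CPM, 66.6 CPM and 94.7 CPM against plate medians of 73.6 CPM and 93.5 CPM and was not called. Of 16 amino acid supply genes, 2 were called higher with NT157, the same share as over all genes (12.5%), 1 with APTO_253 and 0 with MCB_613.

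**Figure D5:**
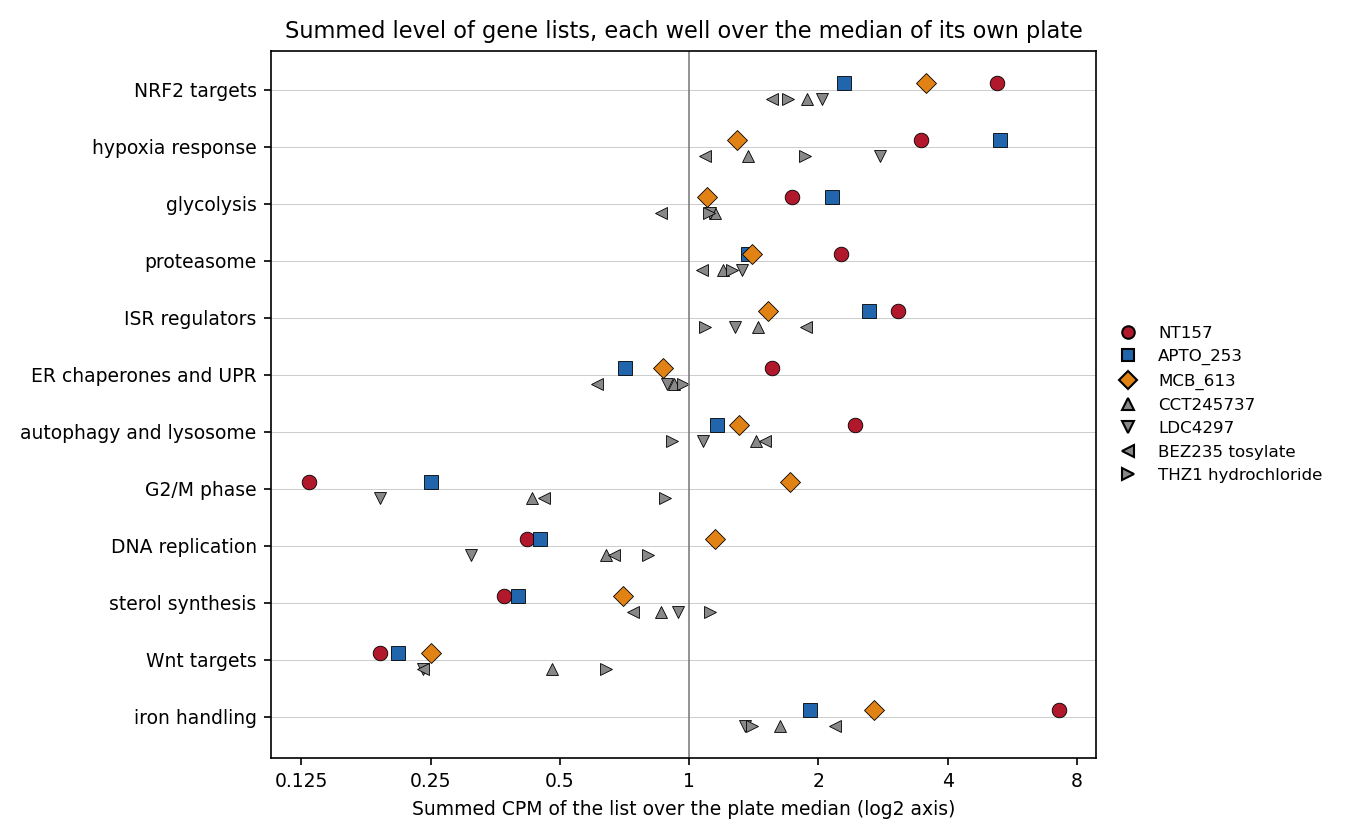
Summed CPM of 12 gene lists in each compound well over the median of the other compound wells of its plate, on a log2 axis. NT157, APTO_253 and MCB_613 are coloured, and grey symbols show CCT245737, LDC4297, BEZ235 tosylate and THZ1 hydrochloride on their own plates; NRF2 targets reach 5.22, 2.3 and 3.56 times the median in the 3 compounds, and G2/M genes 0.13, 0.25 and 1.72 times.

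Sterol synthesis and Wnt target genes were called in the lower direction only. Of 20 sterol synthesis genes, 8 were called lower with NT157, 5 with APTO_253 and 2 with MCB_613, and none higher. After either thinning, 4 were called lower with NT157, 5 with APTO_253 and 2 with MCB_613. The list summed to 362 CPM, 396 CPM and 688 CPM against plate medians of 973 CPM for NT157 and 983 CPM for the other two. NT157 and APTO_253 were below every reference well and MCB_613 was inside the plate 1 range of 601 to 1443 CPM. Of 12 Wnt target genes, 4, 2 and 1 were called lower, and the list summed to 116 CPM, 107 CPM and 131 CPM. Nkd1, a feedback inhibitor of Wnt signalling, was called lower in all 3 at 23.1 CPM, 33.3 CPM and 36.7 CPM, against medians of 236 CPM on plate 2 and 196 CPM on plate 1, although not with MCB_613 after either thinning. No tested gene of the sterol, Wnt or fibroblast lists differed between any pair. Of 31 fibroblast and matrix genes, 8 were called lower and 2 higher with NT157, 4 lower with APTO_253 and 6 lower with MCB_613.

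Single genes outside these groups also differed. Uchl1 (chr5:66676091-66687234), a deubiquitinase best known from neurons, was at 1804 CPM with NT157, 96.6 CPM with APTO_253 and 466 CPM with MCB_613. Its reference ran from 22 to 153 CPM on plate 1 and from 33.4 to 114.7 CPM on plate 2, so APTO_253 lay inside it and the other two above it. All 3 pairs passed, with log2 differences of 4.69 ± 0.57 for NT157 against APTO_253 (edgeR adjusted p = 5.99e-10), 2.41 ± 0.49 for NT157 against MCB_613 (edgeR adjusted p = 0.00218) and -2.28 ± 0.55 for APTO_253 against MCB_613 (edgeR adjusted p = 0.0211). Sepn1, an ER selenoprotein, went the other way, at 53.9 CPM with NT157, 243 CPM with APTO_253 and 238 CPM with MCB_613. NT157 was below every reference well and lower than both others, by -2.06 ± 0.37 (edgeR adjusted p = 0.000257) and -2.05 ± 0.36 (edgeR adjusted p = 0.000237). The interval of the log2 difference between APTO_253 and MCB_613 in Sepn1 was -0.63 to 0.66. Isyna1, which makes inositol, was at 137 CPM, 40.0 CPM and 257 CPM and was lower with APTO_253 than with MCB_613 by -2.69 ± 0.63 (edgeR adjusted p = 0.0182). Mt3, a metallothionein, gave 237 counts with NT157, 1 count with APTO_253 and 33 counts with MCB_613, a ratio of 95.5 between the first 2 (95% counting interval 17.0 to 3789, edgeR adjusted p = 0.0017). Fbxo2, a ubiquitin ligase subunit for glycoproteins, was at 507 CPM, 3 counts and 17.4 CPM, and NT157 passed against both. DESeq2 did not call Mt3.

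Ccl6, Cma2, Mmp13 and Lyz2 were higher with NT157 than with MCB_613, and of these Ccl6 also passed against APTO_253. Ccl6, a chemokine, was at 156 CPM with NT157 and 0 counts in the other wells, at least 14.4-fold above APTO_253 (edgeR adjusted p = 0.0268) and 24.8-fold above MCB_613 (edgeR adjusted p = 0.00572). Cma2, a mast cell chymase, was at 170 CPM, 23.3 CPM and 0 counts, at least 28.7-fold higher with NT157 than with MCB_613 (edgeR adjusted p = 0.00387). Mmp13, a collagenase, was at 424 CPM, 36.6 CPM and 17.4 CPM, with a log2 difference of 5.01 ± 1.09 between NT157 and MCB_613 (edgeR adjusted p = 0.00572). Lyz2, the myeloid lysozyme, was at 416 CPM, 69.9 CPM and 19.3 CPM, and passed between NT157 and MCB_613 (4.80 ± 1.24, edgeR adjusted p = 0.0454, called in 6 of 10 alternatives). DESeq2 called neither Ccl6 nor Cma2. Of the macrophage list, 9 genes were in the table and 5 were tested, of which 4 were called higher with NT157 and 0 with either of the others. In the pair tests Lyz2 and Tyrobp passed against MCB_613 and no gene of the list against APTO_253. The list summed to 676 CPM with NT157, 163 CPM with APTO_253 and 83.1 CPM with MCB_613. Reference wells held 16.3 to 310 CPM on plate 1 and 10.8 to 251 CPM on plate 2, so only NT157 was outside the range of its plate. Of the 9 macrophage list genes in the table, Ptprc and C1qa were at 0 counts in all 3 wells. All the others gave counts with NT157 and MCB_613, while Cd14 and C1qb were also at 0 counts with APTO_253. The part of macrophage-type RNA in the lysosome and iron results of NT157 was not tested. Endothelial markers summed to 19.3 CPM, 59.9 CPM and 38.7 CPM in the 3 wells, and epithelial markers to 84.7 CPM, 120 CPM and 155 CPM. The endothelial sum of NT157 was below every reference well of plate 2 (35.4 to 106 CPM), and the other two were inside the plate 1 range (25.1 to 114 CPM). The epithelial sums were above the plate medians of 37.8 CPM on plate 1 and 33.1 CPM on plate 2. They lay inside the ranges of 0 to 878 CPM and 3.7 to 183 CPM.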

How the data were processed

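Per the file headers and values, the authors deposited unscaled counts, 1 whole number for each gene in each well. The submitters' processing notes name STAR and mm10. The sources used here give no versions, counting tool, annotation, strandedness or handling of molecular identifiers. Of 274 columns, 257 were given to a plate by the deposited barcode lists, 17 were not used, and 4 exact repeats of a column were counted once. The 217 compound wells with at least 10% of their plate's median total entered 1 fit with a plate term and an indicator per compound (edgeR 4.0.16, R 4.3.3, TMM scaling). The fit ran on 10586 of 20471 genes, those with a mean of at least 1 count per well. Calls used Benjamini-Hochberg adjustment at 0.05. Depth ranged from 300348 to 519263 counts in the 3 wells, so a gene at 0 counts was bounded by a floor of 3 counts.

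Named genes were the first 12 shared in each direction, the 10 largest rises and falls per compound, the 8 largest differences per pair, and any member of 38 gene lists. The compounds and the lists were chosen with earlier results of these data known. Ratios across plates set each count against its plate's reference wells. Gene positions came from GENCODE vM21 on mm10 and promoters from RefSeq GRCm38.p6. The procedure was tested on simulated data.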

Additional observations from a re-analysis of the deposited data

How the results depend on the processing

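The counts of called genes stayed within 1.5 times of those reported under DESeq2, RLE size factors, library totals, a mean of at least 5 counts, wells with at least 50% of the plate median and the addition of medium wells named bC8FAE. They also did so for the single compounds when reference wells under the plate median were left out, an alternative not run for the pairs. Outside that range, without a filter on low counts APTO_253 had 300 called genes (456 reported) and NT157 against APTO_253 had 23 (35 reported). With plate 1 alone APTO_253 against MCB_613 had 10 (16 reported). With the NT157 and MCB_613 wells thinned to the APTO_253 total, MCB_613 had 305 (622 reported) and NT157 against MCB_613 had 40 (62 reported). With every deeper well thinned these were 307 and 33, and NT157 against APTO_253 had 20 (35 reported). Both thinnings were chosen after seeing the data; the cause was not tested beyond the lower depth itself. Of 77 differences between compounds examined by gene, 77 kept their direction and 35 were called in every alternative that tested them. No gene reversed. No paired analysis was possible because each compound had 1 well, and for the same reason no replicate could be left out. The limits are 1 well per compound, doses not given, no vehicle well, and for NT157 a comparison across plates. At these depths a fall in a gene expected at under 3 counts was not detectable.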

Other observations

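Crct1, Lce1g and Lce1h, genes of the cornified envelope that forms the outer shell of skin cells, were called higher with NT157 and APTO_253 and not with MCB_613. They were named for the size of their rises and grouped after their values were seen. Crct1 was at 1238 CPM with NT157, 400 CPM with APTO_253 and 83.1 CPM with MCB_613, while the plate medians were 9.19 CPM for NT157 and 7.94 CPM for the other two. NT157 and APTO_253 were above every reference well, and 4 reference wells lay above MCB_613. Lce1g was at 2985 CPM, 666 CPM and 365 CPM, and Lce1h at 557 CPM, 789 CPM and 189 CPM. No pair passed for these 3 genes, and the log2 difference of Crct1 between NT157 and MCB_613 was 4.58 with a 95% interval of 1.84 to 7.32 (edgeR adjusted p = 0.131). Krt14, a keratin of basal skin cells, gave 25 counts with MCB_613 and 0 with the others. Il1rl1, the interleukin-33 receptor, was at 102 CPM with NT157, 226 CPM with APTO_253 and 29.0 CPM with MCB_613. Of 12 tested inflammatory genes, 7 were called higher with NT157, 2 with APTO_253 and 1 with MCB_613, and none lower. Procr, the protein C receptor, was at 179 CPM, 46.6 CPM and 116 CPM, with NT157 and MCB_613 above every reference well.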
